A study of Mus musculus with 6 samples.

Results

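The vascular endothelial growth factor (VEGF) and angiopoietin genes encode secreted ligands and the receptor tyrosine kinases that bind them, and 10 of these genes were followed here out of 27506 genes in the count table. They were chosen by gene symbol, and each of the 10 symbols had 1 row in the table. The members comprise 3 VEGF ligands (*Vegfa*, *Vegfb* and *Vegfc*), 3 VEGF receptors (*Flt1*, *Kdr* and *Flt4*), 2 angiopoietins (*Angpt1* and *Angpt2*), the angiopoietin receptor *Tek* and the related receptor *Tie1*. RNA-seq was performed on dental pulp of the mandibular first molar from C57BL/6 mice at P3.5 (3.5 days after birth), when root formation begins. The 3 control libraries came from *Ror2fl/fl* mice, in which *Ror2*, a receptor for Wnt ligands, is flanked by loxP sites and intact. The 3 mutant libraries came from *Osr2-Cre;Ror2fl/fl* mice, which carry the same floxed alleles and in which Cre under the control of *Osr2* removes *Ror2* in the dental mesenchyme. According to the study the Cre also acts in alveolar bone and not in dental epithelium. Sample titles carry the code WW for control library 1, OW for control libraries 2 and 3, and OR for the mutant libraries. All 3 controls share the genotype label *Ror2fl/fl*. What these codes mean, whether the Cre acts in endothelial cells, and whether animals were pooled, is not given in the sources used here. The comparison asks how the transcript levels of these ligands and receptors differ in molar pulp after loss of mesenchymal *Ror2*.

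VEGF-A, the product of *Vegfa*, is secreted by many cell types and acts on endothelial cells through the receptor encoded by *Kdr*, whereas the *Flt1* product binds the same ligand tightly, signals weakly and limits its availability. VEGF-C acts mainly through the *Flt4* receptor in lymphatic growth. *Angpt1* is made by mesenchymal and perivascular cells and activates the endothelial receptor encoded by *Tek*, *Angpt2* is released by endothelial cells and can oppose it, and the *Tie1* product pairs with the *Tek* receptor and binds no angiopoietin by itself. In the developing tooth, vessels enter the dental papilla and form a capillary bed close to the odontoblasts.

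The libraries held between 56134770 and 62628940 estimated counts. Levels are in CPM, counts divided by the library size after TMM scaling in edgeR. *Ror2* had 38.2, 36.2 and 36.7 CPM in control libraries and 27.9, 28.1 and 26.3 CPM in mutant libraries (log2 fold change -0.43, edgeR adjusted p = 0.0134). Of the 19330 genes that passed edgeR's filter on low counts, 3906 (20.2%) were past the threshold used throughout, a Benjamini-Hochberg adjusted p-value under 0.05 from the quasi-likelihood test of edgeR. The groups did not overlap for 44.7% of the genes tested. The labelled pulp libraries also held much RNA of the dental epithelium. The enamel protein gene *Amelx* took 9.15% to 9.97% of the counts in control and 12.6% to 15.1% in mutant libraries, and the 9 epithelial markers listed summed to 171000 to 192000 CPM and 185000 to 255000 CPM. Markers of mesenchyme (12 of 12 tested) and odontoblasts (9 of 9) were present as well. Of the other marker lists, the 6 skeletal muscle genes tested all fell in mutant libraries, 2 of 7 erythroid genes fell, 1 of 8 leukocyte genes fell and 2 of 12 mesenchymal genes rose. DESeq2 called 2 leukocyte genes higher and 1 lower, and 2 mesenchymal genes higher and 3 lower. With the GC content offset described next, none of the leukocyte genes passed the threshold in edgeR (3 at an unadjusted p-value under 0.05), and of the mesenchymal genes 0 rose and 1, *Barx1*, fell. None of the 9 epithelial and 9 odontoblast markers passed the threshold in edgeR's test, where 4 and 0 of them had an unadjusted p-value under 0.05, against 3 and 0 with an adjusted p-value under 0.05 in DESeq2. The part of these changes in the values below was not tested. In such bulk samples, fewer cells of a type and less RNA per cell cannot be told apart.

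Fold changes in this comparison moved with the GC content of the transcripts. When the genes tested were ranked by GC content and split into 5 groups of nearly equal size, the median log2 fold change was -0.28 in the group of lowest GC content (28.3% to 44.4%), 0.01 in the middle group and 0.22 in the group of highest GC content (55.4% to 78.4%). Values with an offset per library that removes the trend with GC content, whatever its origin, are therefore given beside many of the results. With this offset the log2 fold change of *Ror2* was -0.66 (edgeR, adjusted p = 0.00284). *Angpt1* (39.1% GC) lay in the lowest group, and *Flt4* (56.2%), *Tie1* (57.8%) and *Vegfb* (61.1%) lay in the highest.

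**Figure D1:**
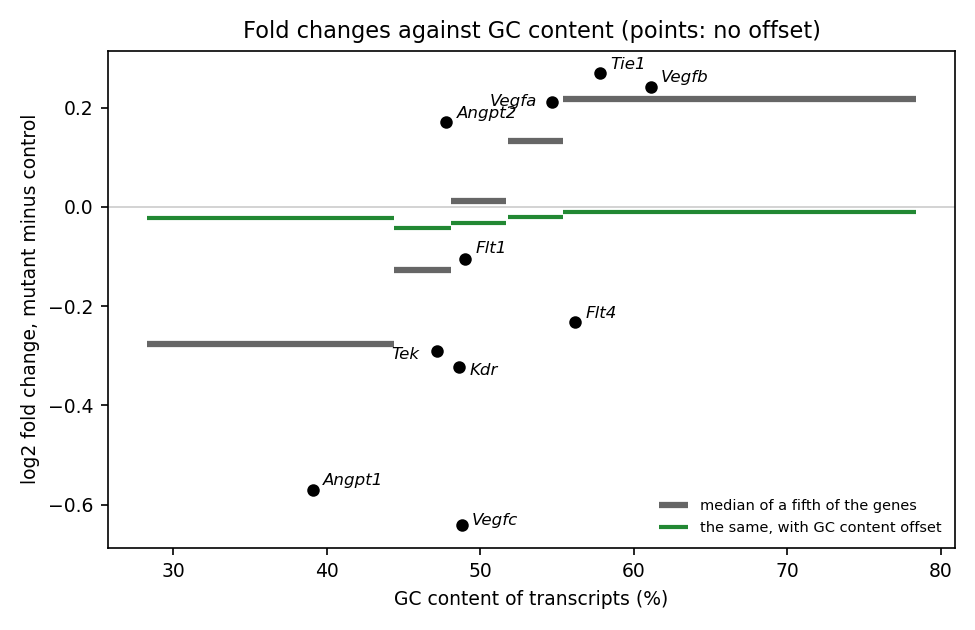
Log2 fold change of each of the 10 genes without an offset (points, mutant minus control) against the GC content of its transcripts in percent, with horizontal bars for the median of all genes in each of 5 groups of GC content without (grey) and with (green) the GC content offset. The grey medians rise from -0.28 to 0.22, *Angpt1* lies at the low-GC end, and *Vegfc* lies far below the median of genes of like GC content.

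RefSeq promoters on GRCm38.p6 (the mm10 assembly) were found for 8 of the 10 genes and not for *Angpt1* and *Angpt2*. The 250 bases before the start site are shown for *Vegfc*, the member whose decrease was largest, and for *Tie1* and *Tek*, one of the 2 receptor pairs whose log2 ratios did not overlap between the groups. Capitals mark the letters searched on both strands: the GC box GGGCGG, the hypoxia response core ACGTG and the ETS-type cores CGGAAG and AGGAAG. These were found in 32.7%, 16.6%, 13.6% and 29.5% of all 32851 RefSeq promoter windows of this length.
Vegfc (chr8:54077282-54077531, plus strand): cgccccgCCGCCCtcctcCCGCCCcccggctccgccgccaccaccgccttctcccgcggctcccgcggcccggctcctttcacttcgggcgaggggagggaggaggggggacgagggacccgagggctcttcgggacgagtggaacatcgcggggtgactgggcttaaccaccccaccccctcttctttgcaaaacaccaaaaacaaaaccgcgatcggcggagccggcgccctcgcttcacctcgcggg
Tie1 (chr4:118489850-118490099, minus strand): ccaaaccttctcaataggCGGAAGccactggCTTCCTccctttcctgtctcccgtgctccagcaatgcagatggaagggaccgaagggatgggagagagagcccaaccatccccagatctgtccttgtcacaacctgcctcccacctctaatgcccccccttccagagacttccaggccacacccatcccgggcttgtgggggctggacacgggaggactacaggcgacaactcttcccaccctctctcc
Tek (chr4:94739039-94739288, plus strand): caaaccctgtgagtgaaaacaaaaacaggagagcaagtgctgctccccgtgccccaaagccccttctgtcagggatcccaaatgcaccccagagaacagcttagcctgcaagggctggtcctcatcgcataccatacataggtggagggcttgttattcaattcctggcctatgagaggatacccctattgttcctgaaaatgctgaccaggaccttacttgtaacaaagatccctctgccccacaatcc
The *Vegfc* window held 2 GC boxes and was 71.6% G and C, against a median of 52.4% over all windows. The *Tie1* window held 1 of each ETS-type core and the *Tek* window none of the letters searched. Among the 9 windows of the 8 genes, ACGTG was found in 1, the downstream start site of *Vegfa* (chr17:46025164-46025413, minus strand). This window lies inside the span of *Vegfa*, so its letters can include exon sequence. These matches describe the letters only.

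All 10 genes passed the filter, with between 131 and 3353 estimated counts per library. Of the 10, the ligand genes *Vegfc* and *Angpt1* (2 of 10) passed the threshold, both lower in mutant libraries, against a background of 20.2% of all genes in either direction and 9.84% lower. The groups did not overlap for 3 of the 10, against 44.7% of all genes. None of the 5 receptors passed the threshold in edgeR or DESeq2, and 0 of them had an unadjusted p-value under 0.05 in either, a level reached by 38.3% of all genes in edgeR. The median log2 fold change of all genes tested was 0.01.

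**Figure D2:**
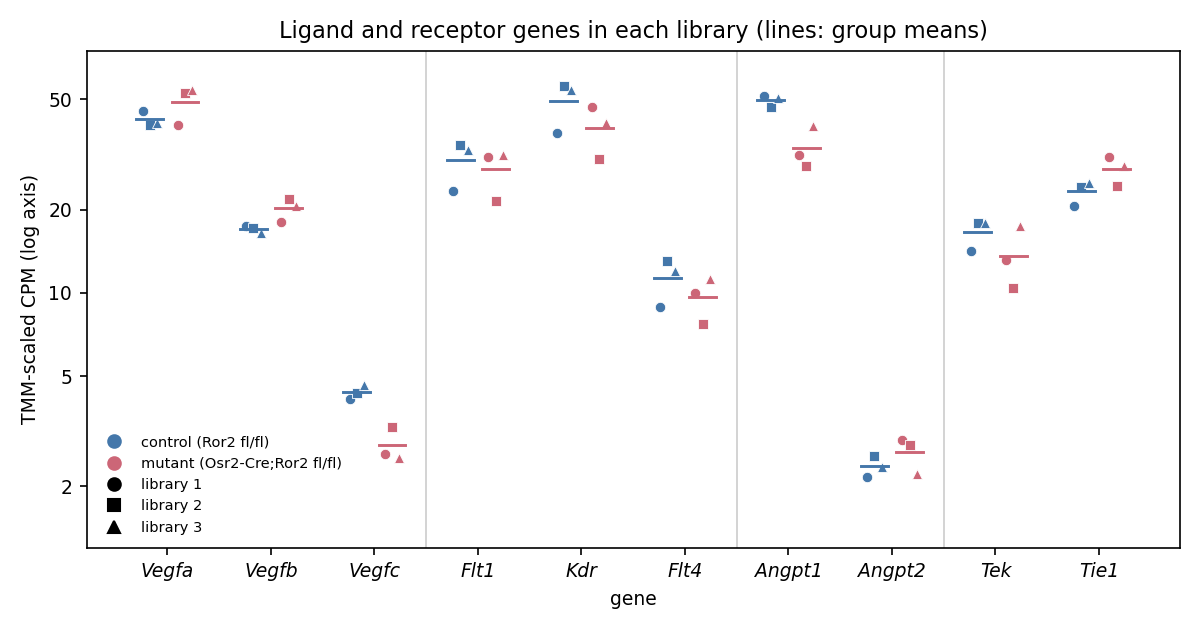
TMM-scaled CPM (log axis) of the 10 genes in each library, with control libraries in blue, mutant libraries in red, a symbol per library number and lines for the group means. The mutant libraries lie below all control libraries for *Vegfc* and *Angpt1* and above all of them for *Vegfb*, and control library 1 and mutant library 2 are the lowest of their groups for *Flt1*, *Kdr*, *Flt4*, *Tek* and *Tie1*.

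*Vegfc* (ENSMUSG00000031520.6; chromosome 8, 54077606 to 54187096, plus strand, mm10) had 4.15, 4.36 and 4.66 CPM in control libraries and 2.62, 3.28 and 2.54 CPM in mutant libraries. Every mutant library was below every control library, and the fitted level fell by 35.9%. The log2 fold change was -0.64 (standard error 0.17, 95% interval -1.02 to -0.26, edgeR adjusted p = 0.0324). With the GC content offset it was -0.65 (edgeR, adjusted p = 0.0362). The libraries held 150 to 288 counts of it. In fits that each left out 1 library, the log2 fold change ran from -0.76 to -0.58 and the adjusted p-value from edgeR was 0.0561 without control library 1, 0.119 without control library 2, 0.138 without control library 3 and 0.0737 without mutant library 1.

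*Vegfa* (ENSMUSG00000023951.17; chromosome 17, 46016993 to 46032369, minus strand) measured 45.5, 40.6 and 41 CPM in control libraries and 40.4, 52.6 and 54.2 CPM in mutant libraries. Mutant library 1 was below all control libraries and the other two were above them. The log2 fold change of 0.21 (95% interval -0.08 to 0.50) missed the threshold (edgeR, adjusted p = 0.249), and with the GC content offset it was 0.03. *Vegfb* (ENSMUSG00000024962.13; chromosome 19, 6982473 to 6987651, minus strand), whose product binds the *Flt1* receptor, had 17.5, 17.2 and 16.5 CPM in controls and 18.1, 21.9 and 20.6 CPM in mutant libraries. The groups did not overlap, but the log2 fold change of 0.24 (95% interval -0.003 to 0.49) missed the threshold (edgeR, adjusted p = 0.135), and with the GC content offset its sign turned, to -0.01.

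*Angpt1* (ENSMUSG00000022309.9; chromosome 15, 42424723 to 42676977, minus strand) measured 51.5, 46.9 and 50.5 CPM in control libraries and 31.5, 28.8 and 40 CPM in mutant libraries. All mutant libraries were below all control libraries, and the fitted level fell by 32.6%. The log2 fold change was -0.57 (standard error 0.13, 95% interval -0.87 to -0.27, edgeR adjusted p = 0.022). The call was lost with the GC content offset, where the log2 fold change was -0.18 (95% interval -0.51 to 0.16, edgeR adjusted p = 0.435). It was also lost without control library 1, 2 or 3 or mutant library 1, with adjusted p-values from edgeR of 0.0605, 0.0701, 0.0905 and 0.0669. The transcripts share 663 stretches of 75 bases, the read length, with the overlapping antisense gene *Gm17473*, on which 2.6 to 8.1 estimated counts per library were placed.

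*Angpt2* (ENSMUSG00000031465.6; chromosome 8, 18690263 to 18741562, minus strand), which lies within the span of *Mcph1* on the other strand, had 2.17, 2.57 and 2.35 CPM in controls and 2.94, 2.82 and 2.22 CPM in mutant libraries. Mutant library 3 fell among the control libraries and the other two lay above them. The log2 fold change was 0.17 (95% interval -0.26 to 0.60, edgeR adjusted p = 0.531), with 131 to 174 counts per library.

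**Figure D3:**
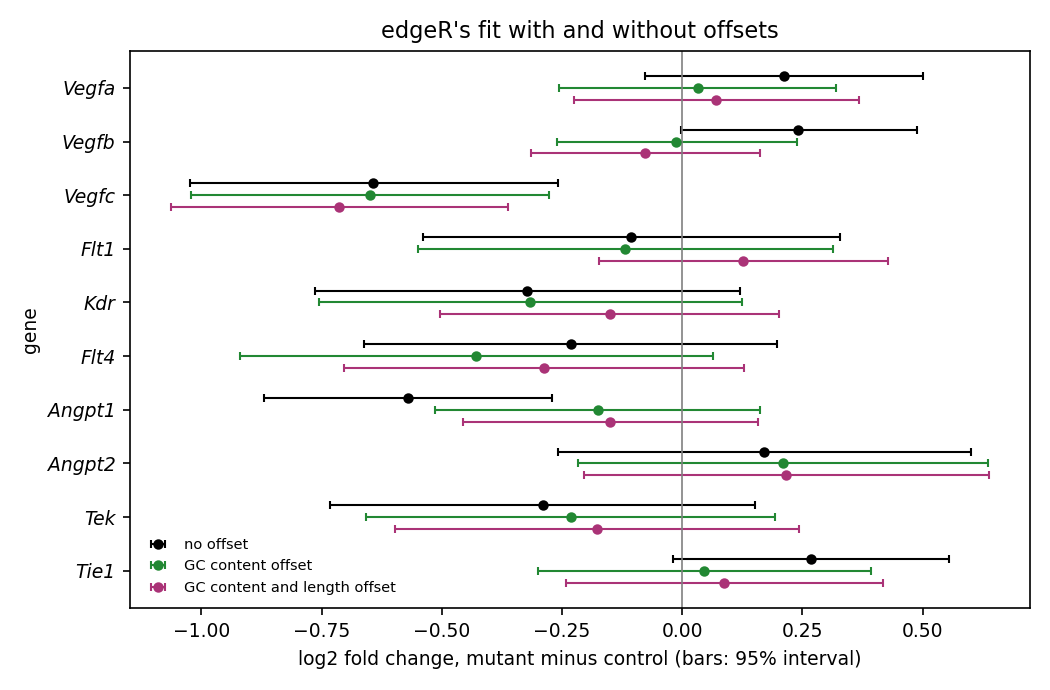
Log2 fold change (mutant minus control) of each gene with its 95% interval from edgeR's fit without an offset (black), with the GC content offset (green) and with the GC content and length offset (purple). The intervals of *Vegfc* exclude 0 in the 3 fits, and that of *Angpt1* excludes 0 without an offset only.

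The VEGF receptors varied together between libraries of the same genotype. *Kdr* (ENSMUSG00000062960.10; chromosome 5, 75932827 to 75978458, minus strand) measured 37.9, 55.9 and 54.3 CPM in controls and 46.8, 30.4 and 41.2 CPM in mutant libraries. *Flt1* (ENSMUSG00000029648.13; chromosome 5, 147561604 to 147726011, minus strand) measured 23.4, 34.2 and 32.8 CPM in controls and 30.9, 21.5 and 31.5 CPM in mutant libraries. *Flt4* (ENSMUSG00000020357.3; chromosome 11, 49609263 to 49652739, plus strand) measured 8.91, 13 and 12 CPM in controls and 9.96, 7.73 and 11.2 CPM in mutant libraries. For all 3 receptors control library 1 and mutant library 2 were the lowest of their group, and the groups overlapped. The log2 fold changes were -0.32 for *Kdr* (95% interval -0.76 to 0.12), -0.11 for *Flt1* (-0.54 to 0.33) and -0.23 for *Flt4* (-0.66 to 0.20), with adjusted p-values from edgeR of 0.25, 0.711 and 0.391. The lower ends of these intervals do not exclude decreases as large as that of *Angpt1* for *Kdr* and *Flt4*. With the GC content offset the log2 fold change of *Flt4* was -0.43 (edgeR, adjusted p = 0.205). The sign for *Flt1* turned, to 0.13, with the GC content and length offset.

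The fold changes of the Tie receptors had opposite signs, and neither passed the threshold. *Tek* (ENSMUSG00000006386.15; chromosome 4, 94739289 to 94874976, plus strand) measured 14.2, 17.9 and 17.9 CPM in controls and 13.1, 10.4 and 17.4 CPM in mutant libraries, a log2 change of -0.29 (95% interval -0.73 to 0.15, edgeR adjusted p = 0.298). *Tie1* (ENSMUSG00000033191.14; chromosome 4, 118471191 to 118490061, minus strand) measured 20.7, 24.1 and 25 CPM in controls and 31.1, 24.3 and 28.7 CPM in mutant libraries, a log2 change of 0.27 (95% interval -0.02 to 0.56, edgeR adjusted p = 0.151). The groups overlapped for both receptors. Without mutant library 2 the adjusted p-value of *Tie1* from edgeR was 0.0486 (log2 fold change 0.37), and with the GC content offset its log2 fold change was 0.05.

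Levels of different genes were compared per kilobase (kb) of merged exons. In control libraries *Vegfb* (10.6 ± 0.319 CPM per kb, SD, n = 3), *Vegfa* (9.89 ± 0.633) and *Angpt1* (9.53 ± 0.462) were the most abundant, and the ranges of neighbours in this order overlapped. *Kdr* (5.47 ± 1.1 CPM per kb) and *Tie1* (4.73 ± 0.468) followed and overlapped each other. *Tek* (3.53 ± 0.457 CPM per kb) was below *Tie1* and above *Flt1* (2.23 ± 0.437) in every control library. The ranges of *Flt1* and *Vegfc* (1.79 ± 0.106 CPM per kb) overlapped, *Flt4* (1.38 ± 0.26) was below *Vegfc*, and *Angpt2* (0.641 ± 0.0543) was the lowest. In mutant libraries *Angpt1* (6.42 ± 1.13 CPM per kb) lay below *Vegfa* (11.5 ± 1.75) without overlap, and its range met that of *Tie1* (5.7 ± 0.693). *Tie1* ranked above *Kdr* and *Flt4* above *Vegfc* there, with overlapping ranges in both cases. Transcripts of *Flt1* include short and long forms, which a count per gene sums.

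**Figure D4:**
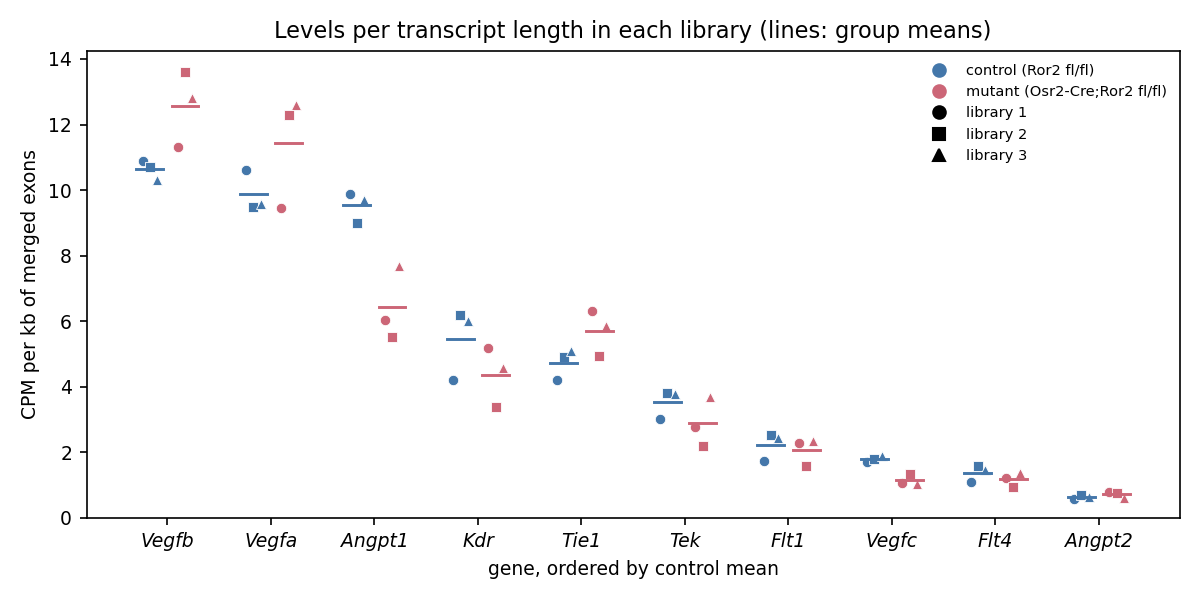
TMM-scaled CPM per kb of merged exons of each gene in each library, ordered by the control mean, with control libraries in blue, mutant libraries in red and lines for the group means. *Vegfb*, *Vegfa* and *Angpt1* lie between 9.01 and 10.9 in control libraries, and *Angpt1* lies between 5.53 and 7.69 in mutant libraries.

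Ratios of a pair of genes within a library hardly depend on how libraries are scaled. The log2 ratio of *Flt1* to *Kdr* was -0.70, -0.71 and -0.73 in control libraries and -0.60, -0.50 and -0.39 in mutant libraries, although each receptor alone varied more. All mutant libraries were above all control libraries, by 0.22 on average, and with the GC content offset by 0.20, again without overlap. The log2 ratio of *Tie1* to *Tek* was 0.54, 0.43 and 0.48 in control and 1.24, 1.23 and 0.72 in mutant libraries, 0.58 higher without overlap. With the GC content offset this difference was 0.29 and the groups still did not overlap. The log2 ratio of *Angpt2* to *Angpt1* was 0.75 higher in mutant libraries without overlap (-4.55, -4.17 and -4.41 against -3.41, -3.33 and -4.15), but with the GC content offset the difference was 0.39 and the groups overlapped. For *Vegfa* to *Kdr* (0.53 higher) and *Vegfc* to *Flt4* (-0.41) the groups overlapped. The two-sided exact permutation p-value was 0.1 for each of the 3 ratios without overlap, the smallest that 3 libraries against 3 allow, and 0.167 after adjustment over the 5 ratios compared.

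**Figure D5:**
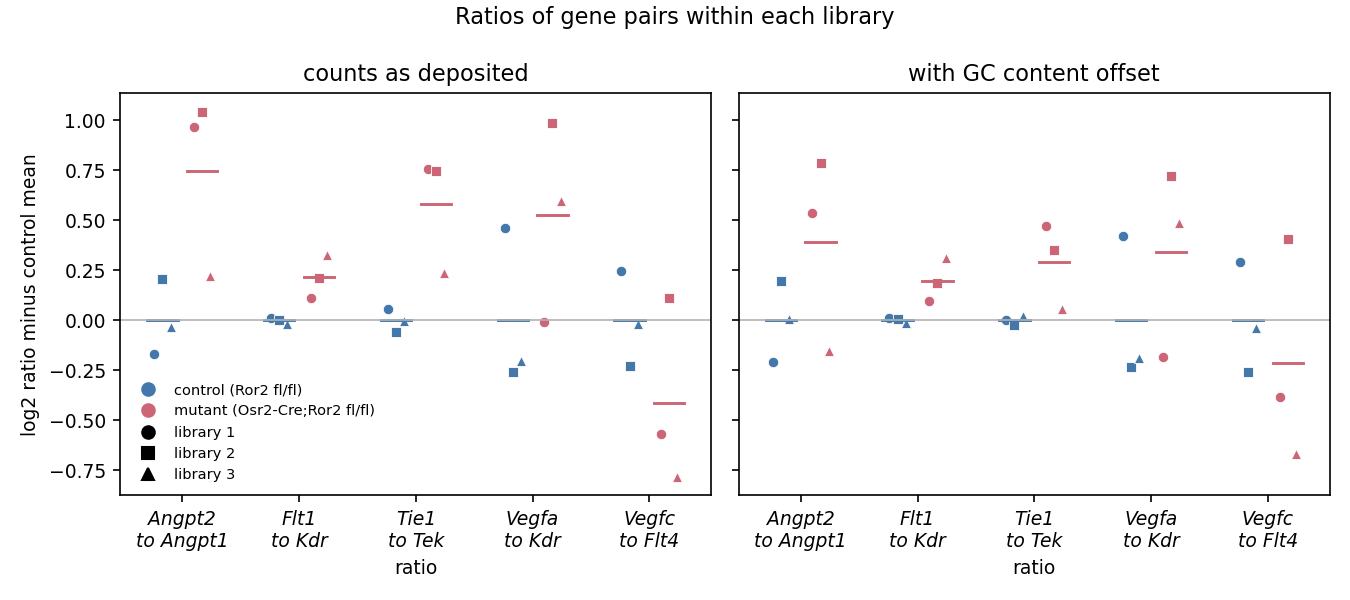
Log2 ratio of 5 gene pairs in each library minus the control mean, from the deposited counts (left) and with the GC content offset (right), with control libraries in blue, mutant libraries in red and lines for the group means. The mutant libraries lie above all control libraries for *Flt1* to *Kdr* and *Tie1* to *Tek* in both panels, and for *Angpt2* to *Angpt1* on the left only.

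As the receptors are endothelial genes, 20 endothelial marker genes were set beside them. All 20 were tested and 2 rose, or 10% against the 10.4% of all genes that rose. The median log2 fold change was 0.10, and -0.06 with the GC content offset. *Ramp2*, which encodes a receptor-modifying protein for adrenomedullin, rose from 13.7 ± 0.663 to 25.8 ± 1.6 CPM (SD, n = 3, log2 fold change 0.91, edgeR adjusted p = 0.00126). *Egfl7*, a secreted endothelial protein, rose from 19 ± 1.18 to 33.4 ± 8.49 CPM (log2 fold change 0.82, edgeR adjusted p = 0.0162). Both also rose with the GC content offset, by 0.71 and 0.58 on the log2 scale. With the offset *Emcn*, an endothelial sialomucin gene, passed the threshold as well (log2 fold change 0.47, edgeR adjusted p = 0.035), against 0.24 without it. *Robo4*, an endothelial guidance receptor, showed a log2 change of 0.39 (edgeR, adjusted p = 0.113). The summed level of the 20 markers was 355 to 431 CPM in controls and 400 to 444 CPM in mutant libraries, and the ranges overlapped. The mean log2 CPM of the markers was 3.60, 3.81 and 3.84 in control and 3.86, 3.80 and 3.93 in mutant libraries. As for the 5 receptors, control library 1 and mutant library 2 were the lowest of their groups.

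Set against this mean within each library, *Vegfc* was 0.76 lower and *Angpt1* 0.70 lower in mutant libraries on the log2 scale, and *Tek* was 0.43 lower, each without overlap. *Kdr* was 0.44 lower with overlapping groups. The exact permutation p-value was 0.1 for the 3 genes without overlap and 0.333 after adjustment over the 10 genes. With the GC content offset *Vegfc* kept its separation (0.64 lower), the groups overlapped for *Angpt1* and *Tek*, and *Flt4* was 0.42 lower without overlap. Against *Pecam1*, *Cdh5* and *Emcn* alone, without the offset, *Vegfc*, *Angpt1*, *Tek*, *Kdr* and *Flt4* were lower and *Tie1* higher without overlap. The exact permutation p-value was 0.1 for each of these genes and 0.167 after adjustment over the 10 genes. Against all 20 markers, without the offset, the groups overlapped for *Kdr*, *Flt4* and *Tie1*.

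The other genes of the pathway were taken from lists of further ligands, co-receptors and regulators, receptor signaling, the hypoxia response, and tip and stalk cells, with 89 genes tested. Of these, 4 rose and 13 fell (19.1% together, against 20.2% of all genes), and their median log2 fold change was -0.09. When scaled by library size alone, 2 rose and 15 fell, and with the GC content offset 1 rose and 6 fell. The count was 11 without control library 1 and 6 without mutant library 1. Without control library 2 or 3 none passed the threshold in edgeR's test, where 22 had an unadjusted p-value under 0.05 in each case, against 32 with all libraries, and DESeq2 with all libraries called 23.

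Among 16 further ligands, co-receptors and regulators, 3 fell and 1 rose. *Angpt4*, the gene of another angiopoietin that binds the *Tek* receptor, had 12.8, 17.7 and 13.6 CPM in controls and 7.39, 7.64 and 4.07 CPM in mutant libraries. This log2 fold change of -1.21 (edgeR, adjusted p = 0.015) was larger than that of any of the 10 genes and was -1.43 with the GC content offset. *Svep1*, a matrix protein needed for lymphatic remodelling, fell from 26.7 ± 4.75 to 17.2 ± 2.57 CPM (log2 fold change -0.63, edgeR adjusted p = 0.0314) and stayed past the threshold with the GC content offset. *Sema3a* fell and *Sema3f* rose, with log2 fold changes of -0.49 and 0.50 (edgeR adjusted p = 0.024 and 0.0092), and neither passed the threshold with the GC content offset. Both encode semaphorins that bind neuropilins. The neuropilin gene *Nrp1*, a co-receptor for VEGF-A, showed a log2 change of -0.33 (edgeR, adjusted p = 0.274) and *Pgf*, a ligand of the *Flt1* receptor, 0.55 (edgeR, adjusted p = 0.07).

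In the 36 receptor signaling genes tested, 5 fell and 1 rose. The kinase gene *Map2k1* (-0.58), the Src-family kinase gene *Yes1* (-0.69), the GTPase gene *Cdc42* (-0.38), the transcription factor gene *Foxo1* (-0.46) and the protein kinase C gene *Prkca* (-0.59) fell, and *Map2k2* rose (0.44), all as log2 fold changes. With the GC content offset *Map2k1* alone of these passed the threshold (edgeR, adjusted p = 0.019).

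Of 24 hypoxia response genes, 3 fell and 2 rose. *Hif1a*, which encodes the oxygen-regulated factor that induces *Vegfa* in hypoxia, had 155, 172 and 164 CPM in controls and 109, 71.7 and 116 CPM in mutant libraries, a log2 change of -0.73 (edgeR, adjusted p = 0.0254) that was -0.43 and no longer past the threshold with the GC content offset (edgeR, adjusted p = 0.154). The mitophagy gene *Bnip3* (-0.61) and the collagen hydroxylase gene *P4ha1* (-0.66) fell, and the histone demethylase gene *Kdm3a* (0.33) and the prolyl hydroxylase gene *Egln2* (0.37) rose. *Bnip3* and *Kdm3a* kept the threshold with the GC content offset. With the offset the glycolysis gene *Ldha* also passed it (log2 fold change -0.45, edgeR adjusted p = 0.0491), against -0.34 without (edgeR adjusted p = 0.0633). The median log2 fold change of the list was -0.08, and 7 of the 24 values were above 0.

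Among 13 tip and stalk cell genes, 2 fell. *Hey1*, a Notch target, fell from 108 ± 14.3 to 67.7 ± 6.82 CPM (log2 fold change -0.67, edgeR adjusted p = 0.0123) and *Esm1*, a tip cell gene, from 1.28 ± 0.444 to 0.557 ± 0.0463 CPM (-1.19, edgeR adjusted p = 0.0338). With the GC content offset *Hey1* kept the threshold and *Esm1* did not (edgeR, adjusted p = 0.0636). *Apln*, another tip cell gene, showed a log2 change of -0.40 (edgeR, adjusted p = 0.178), and that of the Notch ligand gene *Dll4* was -0.01.

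Lymphatic and mural cells were described by 5 and 12 markers. *Lyve1*, a hyaluronan receptor of lymphatic endothelium that some macrophages also express, had 5.82, 6.06 and 5.41 CPM in controls and 1.27, 1.7 and 2.1 CPM in mutant libraries, a log2 change of -1.77 (edgeR, adjusted p = 0.00168) that was -1.71 with the GC content offset. The groups did not overlap for the lymphatic transcription factor gene *Prox1* (0.807, 1.06 and 1.2 against 0.71, 0.537 and 0.644 CPM) and the chemokine gene *Ccl21a* either, but these missed the threshold (edgeR adjusted p = 0.102 and 0.104). For *Mmrn1* (log2 fold change -0.35, edgeR adjusted p = 0.392) and *Reln* (0.02, edgeR adjusted p = 0.947) the groups overlapped. Mean levels in control and mutant libraries were 5.89 and 5.98 CPM for *Reln*, and 5.76 and 1.69 CPM for *Lyve1*. The summed level of the 5 lymphatic markers was 14 to 14.7 CPM in controls and 7.71 to 11.7 CPM in mutant libraries. The group ranges of this sum did not overlap, and its part in the values of *Vegfc* and *Flt4* was not tested. Of the 5 lymphatic markers 1 fell, against 9.84% of all genes. The groups did not overlap for 3 of the 5, against 44.7% of all genes. Of the mural markers *Abcc9*, a channel subunit gene of pericytes, fell (log2 fold change -1.06, edgeR adjusted p = 0.00956) and *Mcam* rose (0.34, edgeR adjusted p = 0.0409), the latter without passing the threshold with the GC content offset. The intermediate filament gene *Des* showed a log2 change of -0.89 (edgeR, adjusted p = 0.0577). It passed the threshold with the GC content offset (-1.075, edgeR adjusted p = 0.0404). Of the 12 mural markers 1 fell and 1 rose, against 9.84% and 10.4% of all genes, and 4 had log2 fold changes above 0. They summed to 509 to 611 CPM in controls and 422 to 500 CPM in mutant libraries. Abundant genes weigh most in this sum. Among them *Rgs5* had means of 162 and 108 CPM (edgeR, adjusted p = 0.0676), with a log2 change of -0.58, or -0.32 with the GC content offset.

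Likeness of pattern was measured as the root mean square difference of gene-centred log2 CPM over the 6 libraries, among 15048 genes with a mean of at least 1 CPM. The genes closest to *Kdr* were *Nrp1* and *Mast4*, with differences of 0.0399 and 0.04, against a median of 0.356 over all genes. The 3 closest to *Vegfa* were *Gm5626*, *Gmpr2* and *Psmg1*, with 0.0338, 0.0343 and 0.04 against a median of 0.285.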

How the data were processed

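RNA was extracted from dental pulp with a micro column kit. Reads were single-end with 75 cycles, and the methods name TopHat alignment to mm10 and counting over exons, whereas the submitters' processing notes name STAR 2.6.1d and Partek. The counting program and its use of strand are not given in the sources used here. The authors deposited estimated counts per gene, which were rounded to whole numbers. They also deposited a normalized signal, made by adding 1 to the estimated counts and scaling each library to the same upper quartile. Groups were taken from the genotype in the labels. Another 6 columns of the count table match no sample analysed here and were not used.

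Tools were edgeR 4.0.16, DESeq2 1.42.0 and limma 3.58.1 in R 4.3.3. Genes were filtered with edgeR's filterByExpr, scaled with TMM and compared with its quasi-likelihood test with genotype as the only term, and the p-values were adjusted by Benjamini-Hochberg across every gene that passed the filter. The fit was tested on simulated data. Intervals are 95% and use the degrees of freedom of that fit. Ratios and values relative to endothelial markers used log2 with a prior count of 2 and two-sided exact permutation tests. The labels do not say that the libraries of a group came from separate animals, so p-values measure the spread between these samples, which may be technical. Every pair of libraries differed beyond sampling noise (chi-square per gene of at least 56.2).

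Exon lengths and coordinates come from GENCODE M21, which lists the same start for all 27506 genes in the table. GC content was that of all transcripts of a gene in place of merged exons, since no genome sequence was used. The GC content offset was a loess curve (span 0.3) per library of the log2 ratio to the gene mean. Promoters are those of RefSeq.

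The members and lists were chosen with earlier results of these data known. The named genes are the 10 members, *Ror2*, the 3 genes with the smallest p-value of each pathway, endothelial, lymphatic and mural list, all called genes of a list with 5 or fewer, and the genes most like *Kdr* and *Vegfa*. *Amelx*, *Pgf*, *Dll4*, *Emcn*, *Ldha*, *Barx1*, *Mmrn1* and *Reln* were named after their values were seen. So were *Rgs5* and the odontoblast markers. Some genes that meet this rule are not reported here.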

Additional observations from a re-analysis of the deposited data

How the results depend on the processing

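Of the 10 genes, 2 passed the threshold in the main comparison, and 1 did with the GC content offset, 1 with the GC content and length offset, 1 with the replicate block and 0 with the replicate block and the GC content offset together, where 1 had an unadjusted p-value under 0.05 in edgeR. When 1 library was left out the number ran from 0 to 3. It was 0 without control library 1, 2 or 3 or mutant library 1, where 3, 2, 2 and 4 genes had an unadjusted p-value under 0.05 in edgeR. Over all genes the 3906 calls became 2530 with the GC content offset, 2013 with the replicate block and 1289 with both, and 872 to 5001 when 1 library was left out. The 17 other pathway genes called became 7 with the GC content offset, 5 with the GC content and length offset, 8 with the replicate block, 4 with the block and the GC content offset, and 0 to 19 without 1 library. The 2 endothelial markers called became 3 with the GC content offset, 3 with the GC content and length offset, 1 with the block and the GC content offset and 1 to 3 without 1 library, with 1 without control library 2 or 3. Leaving out a library or adding the block leaves fewer residual degrees of freedom. At the same number of libraries, 872 genes were called without control library 3 and 5001 without mutant library 3. The cause of these changes was not tested.

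The sign of *Vegfb* turned with the GC content offset (-0.012), with the GC content and length offset (-0.077) and with the block and the GC content offset (-0.016), and that of *Flt1* turned with the GC content and length offset (0.127) and without mutant library 2 (0.063, the highest of the fits without 1 library, which began at -0.269). Relative to the endothelial markers, values near 0 turned for *Vegfb* with the GC content offset (-0.002), for *Vegfa* without mutant library 2 (-0.003, against up to 0.217 without another library), and for *Angpt2* without control library 3 (-0.002), mutant library 1 (-0.033) or mutant library 2 (-0.035, against up to 0.201). *Vegfc* and *Angpt1* kept their direction in all 16 alternatives, with log2 fold changes from -0.76 to -0.47 and from -0.72 to -0.15 and adjusted p-values (edgeR, DESeq2 or limma) from 0.00461 to 0.138 and from 0.00217 to 0.47. The 5 ratios kept their direction in their 8 alternatives. The GC content offset for ratios and endothelial-relative values was chosen after seeing the data.

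The replicate number is the sample index shared by the labels of both groups. The titles of the groups have different formats. Whether both groups were prepared and sequenced together is not given in the sources used here. If they were not, genotype and such a difference cannot be told apart. The methods of the study speak of 3 pairs of samples, without saying which libraries were paired. Deviations of same-numbered libraries from their group means correlated at -0.1, -0.08 and -0.004 over genes. The numbers were therefore not taken to pair the libraries, and not every library correlated best with its own number. *Vegfc* had an adjusted p-value of 0.0823 from edgeR with the replicate block. *Angpt2* had 131 to 174 counts per library and a standard error of 0.188. Those of *Flt1* (0.189) and *Kdr* (0.193), which had more counts, were similar, and the part of depth was not tested.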

Other observations

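Some genes of other cell types passed the threshold in edgeR's test. In mutant libraries the muscle genes *Acta1* (9.16 to 1.33 CPM), *Myh8* (5.43 to 0.199), *Mylpf* (3.77 to 1.08), *Ckm* (1.86 to 0.0912), *Tnnt3* (1.64 to 0.394) and *Myh3* (0.85 to 0.0624) were lower, with adjusted p-values from edgeR of 0.00175 to 0.0409. Of the erythroid genes, the globin gene *Hba-a1* fell from 239 to 45.9 CPM and the heme synthesis gene *Alas2* from 16.6 to 5.26 CPM, with *Hba-a1* sharing near-identical sequence with another globin gene copy. The macrophage gene *Adgre1* fell from 10.4 to 6.84 CPM, without passing the threshold with the GC content offset (edgeR adjusted p = 0.0678), whereas 4 of the 8 leukocyte genes had log2 fold changes above 0, among them *C1qb* (0.62) and *Lyz2* (0.47), with adjusted p-values from edgeR of 0.0723 and 0.0726. The glial gene *S100b* rose from 2.31 to 4.34 CPM. The mesenchymal transcription factor genes *Dlx2* and *Msx2* rose from 108 to 153 CPM and from 168 to 219 CPM, and neither passed the threshold with the GC content offset (edgeR adjusted p = 0.16 and 0.174). Of the same 12 genes 5 had log2 fold changes below 0, among them *Pax9* (-0.50), *Runx2* (-0.52) and *Lhx8* (-0.64), with adjusted p-values from edgeR of 0.0633 to 0.0877, and *Barx1* fell with the GC content offset (-0.59, edgeR adjusted p = 0.0282). None of these genes is a VEGF or angiopoietin gene, and their part in the values of those genes was not tested.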
